A study of Mus musculus with 30 samples.

Results

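The members described here are 10 genes whose proteins build or steer the growth cone, the moving tip of a growing axon: Gap43, Basp1, Marcks, Marcksl1, Stmn1, Stmn2, Crmp1, Dpysl3, Dpysl5 and Nrep. Every probe set whose annotation gave one of these symbols and no other was taken, without regard to its signal. This gave 20 probe sets, of 29197 with a single symbol, and 10 genes of 15965. Of the 3 array types used, called chips A, B and C here, the first held 13 of the probe sets, the second 7 and the last 0. Their levels in the mouse primary visual cortex were followed from postnatal day (P) 14 to P28 and P60.

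A growth cone advances when actin filaments push its membrane forward and microtubules follow into the new shaft. Gap43, Basp1, Marcks and Marcksl1 sit on the inner face of the membrane, where protein kinase C and calmodulin control their hold on lipids and actin, and stathmins and collapsin response mediators act on microtubules. In the cortex these proteins are abundant while axons grow and form synapses, and Gap43 in particular is a common marker of growing or sprouting axons.

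RNA came from visual cortex microdissected from litters of mice under standard rearing, extracted with Trizol, and 6 µg of total RNA was labelled for each hybridisation. The groups were 3 litters at P14, when the eyes have just opened, 3 at P28, when closing an eye still shifts the cortex towards the other, and 4 at P60, in young adults. Age was the one difference between them that the labels give. Each litter was hybridised to an Affymetrix MG-U74Av2 array (chip A), an MG-U74Bv2 array (chip B) and an MG-U74Cv2 array (chip C), which makes 30 arrays. Strain, sex and the number of animals per litter are not given in the sources used here, and p-values assume that the 10 litters are separate.

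The values are MAS5 signals, a linear measure of probe brightness in array units that had been scaled so that every array has the same trimmed mean. A gene's level was followed over litters and not set against another gene's, because probe sets differ in brightness for the same amount of RNA. The sums over marker lists given below add such signals, so each follows its brightest probe sets most. In dissected tissue, fewer cells of a type and less RNA per cell cannot be told apart. P14 litter 1 stood apart: the ratio of its 3' to its 5' control probe sets was 9.57 to 12.2 for Gapdh and 12.2 to 12.8 for Actb over its 3 arrays, against 0.741 to 1.32 and 1.04 to 1.5 on the other 27 arrays. Its mean correlation with the other 9 arrays over the tested probe sets was 0.796 on chip A and 0.783 on chip B, the lowest of both chips. P60 litters 1 and 4 were next lowest there, at 0.862 and 0.882 on chip A and 0.811 and 0.807 on chip B. On chip C, which holds no member, P60 litter 2 was lowest at 0.789, and P14 litter 1 was at 0.831. The members' results and the counts over lists are therefore given with all 10 litters and again without P14 litter 1, and the counts of members called also without P60 litters 1 and 4 on chips A and B and P60 litter 2 on chip C.

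Between P14 and P60, Gap43, Marcks and Nrep fell, with log2 changes of -1.13, -1.31 and -1.86, and no member rose. These 3 of 10 members passed limma's test at an adjusted p under 0.05, where 0.29% of all 20724 probe sets tested were called lower. A member was represented here by 1 probe set, the brightest on chip A, or on chip B where chip A had none bright enough to test. The median change over the 10 members was -1.14, against 0.05 over all 11240 genes with 1 probe set each. The change was negative for 8 of 10 members and for 45.5% of all genes. The members were chosen with earlier results of these data known. The values over all probe sets or genes, here and below, are therefore a background for reading the counts and not a test of the group.

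Without P14 litter 1, which leaves 2 litters at P14, 7 of 10 members were called lower at P60, where 1.66% of all probe sets were. Stmn2, Dpysl5, Marcksl1 and Crmp1 joined the first 3. When the P60 arrays that stood apart were left out as well, the same 7 members were called, with 1.31% of all probe sets called lower. This leaves 2 litters at P14 and 2 at P60 on chips A and B. Those P60 arrays were picked for their low correlation in these same data, so the repeat is not separate support. The count of 3 members moved with single litters: it was 0 without P14 litter 2 or without P60 litter 4, 1 without P14 litter 3, P60 litter 1 or P60 litter 2, 2 without any one of the P28 litters, and 5 without P60 litter 3. The calls over all probe sets, in either direction, moved as well, from 82 with all litters. They were 0 without P14 litter 2, 8 without P60 litter 4, 28 without P14 litter 3 and 18 without P60 litter 1. They were 28 without P60 litter 2, 37 to 40 without a P28 litter and 260 without P60 litter 3. The sign of the change stayed negative in each of these fits for Gap43, Marcks and Nrep.

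In the first interval, from P14 to P28, 0 of 10 members passed with all litters, where 0.00483% of all probe sets were called lower. An unadjusted p under 0.05 was reached by 6 members, Gap43, Basp1, Marcks, Stmn2, Dpysl5 and Nrep, and by 1632 of all 20724 probe sets (7.87%). Without P14 litter 1, Stmn2 fell between P14 and P28, with 0.0772% of probe sets called lower. With the P60 arrays that stood apart also left out, Crmp1, Dpysl5, Marcksl1 and Stmn2 passed, with 0.603% called lower. From P28 to P60, 0 of 10 members passed, and limma called 0% of all probe sets lower, with 1125 of 20724 (5.43%) at an unadjusted p under 0.05 in either direction, among them 4 members, Gap43, Marcks, Marcksl1 and Nrep. The members' median change was -0.68 from P14 to P28 and -0.43 from P28 to P60, against 0.04 and -0.02 over all genes.

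The litters can also be compared with no model. Every P14 litter was above every P60 litter for 5 of 10 members (Gap43, Marcks, Stmn2, Dpysl5 and Nrep), a pattern that 6.42% of probe sets showed. Every P14 litter was above every P28 litter for 5 members (Gap43, Basp1, Marcks, Stmn2 and Nrep), against 8.41% of probe sets. Every P28 litter was above every P60 litter for 4 (Gap43, Marcks, Marcksl1 and Stmn2), against 4.46%. All 3 ages were in descending order without overlap for Gap43, Marcks and Stmn2, against 0.444%. Without P14 litter 1 these counts were 7 members for P14 above P60, where 14.9% of probe sets did so, 8 members for P14 above P28, where 18.7% did, and 4 members for the full order, where 1.13% did.

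**Figure D1:**
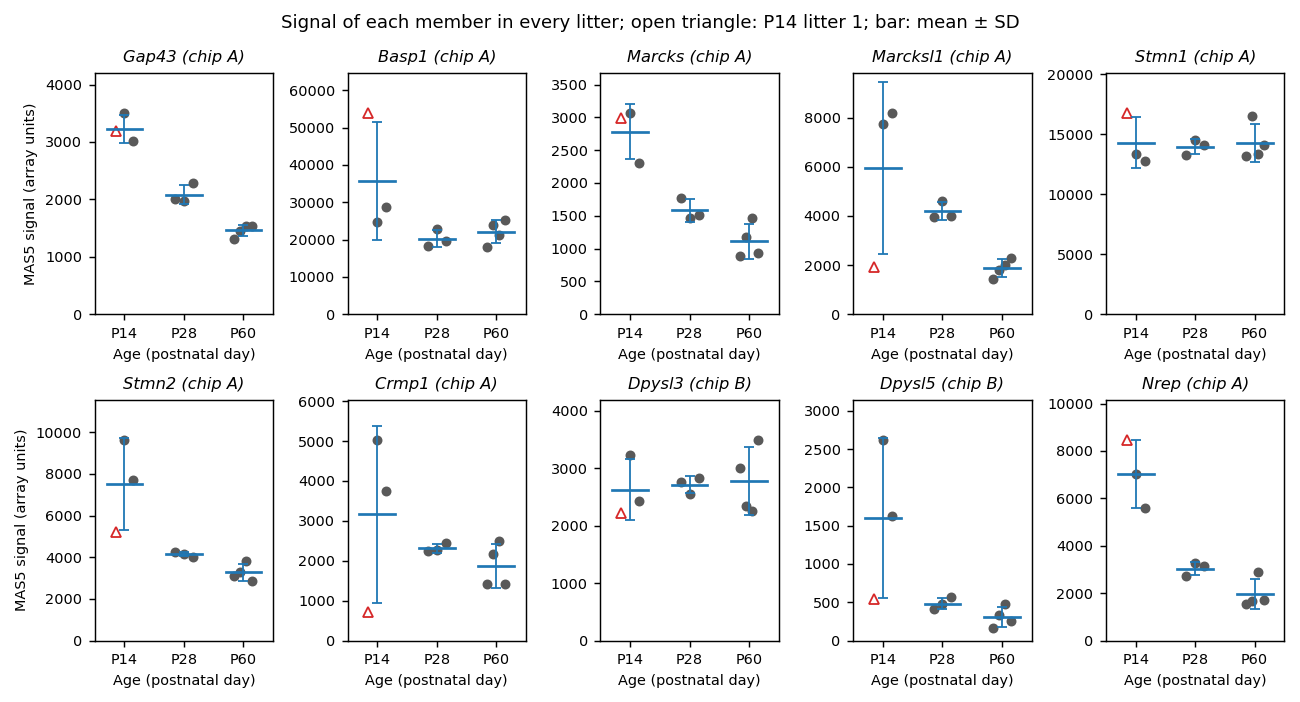
Linear MAS5 signal (array units, axes from 0) of the probe set that represents each of the 10 members, 1 point per litter at P14 (3 litters), P28 (3) and P60 (4), with the mean as a blue line and the SD as an error bar. The open red triangle is P14 litter 1, which lies with the other P14 litters for Gap43 (3187) and Marcks (2985) and far below them for Marcksl1 (1932), Crmp1 (720) and Dpysl5 (544).

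Sequence just upstream of the transcription start is shown for 4 members, so that the promoters of genes measured together can be read side by side. They are the members for which the RefSeq table used here, on the mouse build GRCm38.p6, held an entry. Each run is the 250 bases before the start, 5′ to 3′ on the gene's own strand. Marcksl1 is at chr4:129513331-129513580 on the plus strand, Dpysl5 at chr5:30711314-30711563 on the plus strand and Basp1 at chr15:25413765-25414014 on the minus strand. Crmp1 has 2 listed starts, and the run shown, at chr5:37241808-37242057 on the plus strand, belongs to the upstream one. Capitals mark matches on either strand to any of 6 motifs: the TATA box (TATAAA), the CCAAT box (CCAAT), the GC box (GGGCGG), a pair of E boxes (CAGCTG and also CACGTG) and the cyclic AMP element (TGACGTCA).
Marcksl1: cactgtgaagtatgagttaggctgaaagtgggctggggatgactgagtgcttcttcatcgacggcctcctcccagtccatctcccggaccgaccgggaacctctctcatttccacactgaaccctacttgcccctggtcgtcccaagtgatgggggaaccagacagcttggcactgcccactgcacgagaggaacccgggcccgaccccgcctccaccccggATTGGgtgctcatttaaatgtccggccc
Dpysl5: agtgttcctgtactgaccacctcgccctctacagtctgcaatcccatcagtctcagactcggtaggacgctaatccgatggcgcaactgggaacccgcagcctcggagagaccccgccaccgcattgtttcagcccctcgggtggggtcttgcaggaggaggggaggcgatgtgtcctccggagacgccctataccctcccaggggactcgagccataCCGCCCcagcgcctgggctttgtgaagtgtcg
Crmp1: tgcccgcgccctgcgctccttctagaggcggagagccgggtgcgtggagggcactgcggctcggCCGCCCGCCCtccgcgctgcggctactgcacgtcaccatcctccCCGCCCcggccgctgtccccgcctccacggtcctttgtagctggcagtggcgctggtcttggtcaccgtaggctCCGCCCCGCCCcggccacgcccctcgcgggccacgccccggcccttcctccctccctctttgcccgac
Basp1: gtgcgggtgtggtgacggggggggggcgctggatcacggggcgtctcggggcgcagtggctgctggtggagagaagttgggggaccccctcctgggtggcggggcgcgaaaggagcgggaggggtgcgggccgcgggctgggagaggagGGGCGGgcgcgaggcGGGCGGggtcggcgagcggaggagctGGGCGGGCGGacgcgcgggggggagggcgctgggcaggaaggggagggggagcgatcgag

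GGGCGG, the core that Sp family factors bind, matched 5 times in the Crmp1 run, 4 times in Basp1, 1 time in Dpysl5 and 0 times in Marcksl1, with overlapping matches counted separately. Of all 32851 promoters in the table, 32.7% held at least 1 match. Marcksl1 held 1 match to CCAAT, which 33.8% of promoters held. None of the 4 runs matched the TATA box, which 12.4% of promoters held, the E boxes CAGCTG (13%) and CACGTG (6.02%), or the cyclic AMP element (1.55%). The 4 runs were rich in G and C, from 60.4% in Marcksl1 and 62.8% in Dpysl5 to 75.6% in Crmp1 and 78.8% in Basp1, against a median of 52.4%. They held 12, 17, 30 and 30 CG dinucleotides in that order, against a median of 6. The run before the other Crmp1 start, not shown, was lower on each count, with 59.6% G and C, 16 CG dinucleotides and 2 matches to GGGCGG. These matches describe the letters in this window, and binding was not measured.

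Among the membrane-bound substrates of protein kinase C, Gap43 was lower at each later age, with little spread within each age. Gap43 binds calmodulin until the kinase phosphorylates it and is the classic growth-associated protein of axons. Its signal was 3187, 3498 and 3013 in the P14 litters, 2001, 1969 and 2283 at P28, and 1316, 1454, 1535 and 1533 at P60. Every P14 litter was above every P28 litter, and every P28 litter above every P60 litter. The means were 3233 ± 245 (SD, n = 3), 2084 ± 173 (n = 3) and 1459 ± 103 (n = 4), a ratio of 2.21 between P14 and P60. On the log2 scale the change from P14 to P60 was -1.13 (SE 0.168, limma adjusted p = 0.0179). It was -1.14 (adjusted p = 0.00578) without P14 litter 1, and the adjusted p ran from 0.000554 to 0.161 over all alternatives. The steps of -0.62 (SE 0.18) up to P28 and -0.50 (SE 0.168) after it did not pass the test, with adjusted p of 0.407 and 0.894. Its probe set name has the suffix s, given to probe sets that can match several transcripts.

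Marcks, which holds lipids and actin at the membrane until it is phosphorylated, followed the same course on chip A. Its signal was 2985, 3060 and 2306 at P14, 1776, 1462 and 1508 at P28, and 884, 1183, 1462 and 928 at P60. P14 lay above P28, and P28 above P60 by less than 1 unit: P60 litter 3 and P28 litter 2 are both 1462 to the unit printed. The means fell from 2783 ± 415 (n = 3) over 1582 ± 170 (n = 3) to 1114 ± 267 (n = 4). The change from P14 to P60 was -1.31 (SE 0.216, limma adjusted p = 0.0297), and over all alternatives the adjusted p ran from 0.00103 to 0.196. It passed in 2 of the 10 fits that each left out a litter, without P14 litter 1 (adjusted p = 0.0176) and without P60 litter 3 (adjusted p = 0.0192), where Gap43 passed in 5.

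The other Marcks probe sets, all on chip B, did not show that course. One of them, 165267_i_at, was bright enough to test, ran from 237 to 728 over the 10 litters, and had a log2 change of 0.28 (SE 0.353, limma adjusted p = 0.73) from P14 to P60. The pair named 164291_r_at and 165352_r_at ran from 3.42 to 122 and from 102 to 409, and 10 and 3 of their 10 arrays were below the 95th percentile of the chip's 15 bacterial control probe sets, 153. Both were too dim to be tested. The fall of Marcks thus rests on 1 of its 4 probe sets.

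Marcksl1, the smaller relative of Marcks, had the largest fitted change between P28 and P60 of the 10 members. Its signal was 1932, 7746 and 8171 at P14, 3956, 4621 and 4012 at P28, and 1435, 1799, 2018 and 2281 at P60. P14 litter 1 lay among the P60 litters, while the other P14 litters were above every P28 litter, and every P28 litter was above every P60 litter. The change from P14 to P60 was -1.40 (SE 0.413, limma adjusted p = 0.147) with all litters. Without P14 litter 1 it was -2.08 (SE 0.184, adjusted p = 0.000508), and over all alternatives the adjusted p ran from 0.00011 to 0.326. From P28 to P60, where P14 litter 1 enters through the shared spread, the change was -1.16 (SE 0.413, adjusted p = 0.894; 0.113 without that litter). The P28 mean was 4196 ± 369 (n = 3) and the P60 mean 1883 ± 358 (n = 4), a ratio of 2.23.

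Basp1, which binds membrane lipids and calmodulin and is found in growth cones beside Gap43, had 4 probe sets that did not show one course. The representative, 95673_s_at, gave 53785, 24620 and 28796 at P14, 18296, 22796 and 19546 at P28, and 18038, 23783, 21308 and 25149 at P60. P14 litter 1 was 2.01 times the mean of the other P14 litters here, and P28 and P60 overlapped. Its P14 to P60 change was -0.62 (SE 0.269, limma adjusted p = 0.294), and -0.28 (SE 0.182, adjusted p = 0.422) without P14 litter 1. The second chip A probe set, 95674_r_at, ran from 13631 to 19748 with every age overlapping, and a log2 change of -0.07 (SE 0.198, adjusted p = 0.887).

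The chip B probe sets of Basp1 differed most in P14 litter 1. Probe set 107420_at gave 145, 2880 and 2219 at P14, 2330, 1297 and 1967 at P28, and 1299, 1426, 1140 and 877 at P60, and the 145 was below the bacterial control level. Its P14 to P60 change was 0.15 (SE 0.699, limma adjusted p = 0.932) with all litters and -1.08 (SE 0.253, adjusted p = 0.0509) without that litter. Probe set 163510_at gave 1299 in P14 litter 1 and 406 to 934 in the other 9 litters, with a log2 change of -0.17 (SE 0.31, adjusted p = 0.818). With P14 litter 1 set aside, P14 litter 3 was highest on 95673_s_at, and P14 litter 2 lay below P60 litter 4.

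The stathmins, which bind tubulin and make microtubules shrink, differed from each other. Stmn1, abundant in dividing cells and young neurons, gave 16739, 13321 and 12806 at P14, 13301, 14506 and 14079 at P28, and 13163, 16537, 13329 and 14100 at P60. The ages overlapped throughout, with means of 14289 ± 2138 (n = 3), 13962 ± 611 (n = 3) and 14282 ± 1558 (n = 4). The P14 to P60 change was 0.00 (SE 0.187, limma adjusted p = 0.994). For comparison, Stmn2 at -1.16 (SE 0.221) did not pass this test, so a change of several of these standard errors could have been missed. The second Stmn1 probe set, 97910_at, ran from 7.97 to 56.9, was below the bacterial control level of chip A on all 10 arrays, and was not tested.

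Stmn2, the neuron-specific stathmin that is held on membranes of the growth cone, was lower at each later age on both of its bright probe sets. The representative 95669_g_at gave 5216, 9644 and 7725 at P14, 4255, 4173 and 4035 at P28, and 3112, 3294, 3802 and 2880 at P60. The other, 95670_at, gave 7825, 6494 and 5072 at P14, 3675, 3360 and 3284 at P28, and 2557, 2323, 2100 and 2084 at P60. The 3 ages did not overlap on either. P14 litter 1 was the lowest P14 litter on the first, at 0.601 of the mean of the others, and the highest on the second, at 1.35 of it.

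The P14 to P60 change of Stmn2 was -1.16 (SE 0.221, limma adjusted p = 0.051) on 95669_g_at, just outside the threshold, and -1.48 (SE 0.194, adjusted p = 0.011) on 95670_at, which fell. Without P14 litter 1 these were -1.40 (adjusted p = 0.00227) and -1.33 (adjusted p = 0.00296). Over all alternatives the adjusted p ran from 0.000168 to 0.211 on the first and from 0.000265 to 0.108 on the second. The call for this gene with all litters therefore turned on which of 2 probe sets stood for it. Its remaining probe set, 95668_at, ran from 39 to 180 and was too dim to be tested.

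The collapsin response mediators carry signals from semaphorin receptors to the cytoskeleton. Dpysl5, the member of that family most tied to young neurons, had the largest fitted change of the 10 members. Its signal was 544, 2622 and 1632 at P14, 409, 476 and 562 at P28, and 158, 333, 472 and 261 at P60. P14 litter 1 lay within the range of the P28 litters, and the other P14 litters were above every later litter. The P14 to P60 change was -2.01 (SE 0.435, limma adjusted p = 0.0723) with all litters and -2.62 (SE 0.325, adjusted p = 0.00492) without P14 litter 1. Over all alternatives the adjusted p ran from 0.000158 to 0.214. The means of the remaining P14 litters and of P60, 2127 and 306, stood in a ratio of 6.95.

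Crmp1, another collapsin response mediator, also depended on P14 litter 1. Its signal was 720, 5035 and 3753 at P14, 2234, 2269 and 2446 at P28, and 1406, 2162, 2504 and 1418 at P60. P14 litter 1 was the lowest of all 10 litters and the other P14 litters were the highest, while P28 and P60 overlapped. The P14 to P60 change was -0.40 (SE 0.512, limma adjusted p = 0.731) with all litters and -1.24 (SE 0.236, adjusted p = 0.0246) without P14 litter 1. Over all alternatives the adjusted p ran from 0.00464 to 0.957.

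Dpysl3, which bundles actin and binds tubulin in growth cones, gave different answers on its 2 probe sets. The brighter, 164433_at on chip B, gave 2219, 3224 and 2436 at P14, 2758, 2544 and 2826 at P28, and 3012, 2334, 2256 and 3496 at P60. The ages overlapped, and the P14 to P60 change was 0.07 (SE 0.207, limma adjusted p = 0.886). The dimmer, 101503_at on chip A, gave 27.2, 552 and 275 at P14, 38.4, 74.6 and 109 at P28, and 47.9, 42.6, 71 and 30 at P60. P14 litters 2 and 3 were above every later litter there and P14 litter 1 was the lowest of all. With 7 of 10 arrays below the bacterial control level of 98.4, it was too dim to be in the test. With no filter on dim probe sets its change was -1.43 (SE 0.587, adjusted p = 0.32).

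Nrep, a small protein known from developing and regenerating neurons, fell most of the 3 members called with all litters. Its signal was 8474, 7011 and 5577 at P14, 2723, 3252 and 3125 at P28, and 1542, 1653, 2885 and 1703 at P60. Every P14 litter was above every later litter. P28 and P60 overlapped through P60 litter 3, which was above the lowest P28 litter. The means were 7021 ± 1448 (n = 3), 3033 ± 276 (n = 3) and 1945 ± 630 (n = 4), and the P14 mean was 3.61 times the P60 mean. The P14 to P60 change was -1.86 (SE 0.244, limma adjusted p = 0.011) and passed in 8 of the 10 fits that left out a litter. Over all alternatives the adjusted p ran from 0.000113 to 0.108.

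**Figure D2:**
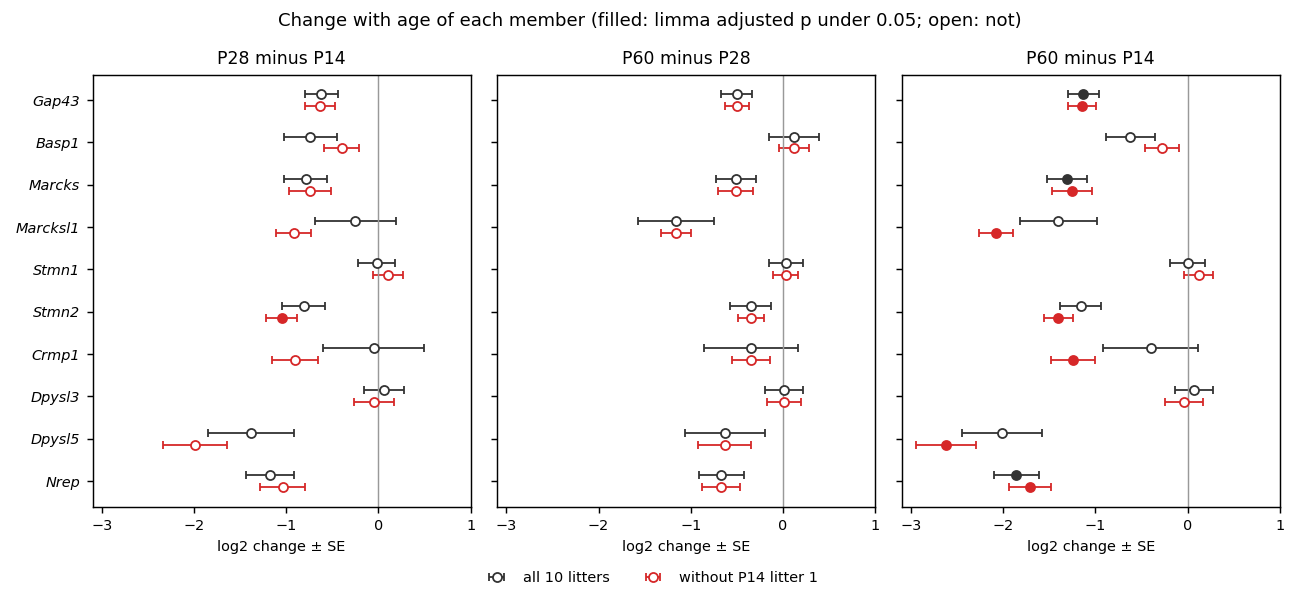
The log2 change (x axis, with limma's standard error) of each member (y axis) for P28 minus P14, P60 minus P28 and P60 minus P14, with all 10 litters in grey and without P14 litter 1 in red; filled points passed at an adjusted p under 0.05. In the 2 panels that use P14, the points of Marcksl1, Crmp1 and Dpysl5 lie further left in red, as for Crmp1 from -0.40 to -1.24 in the last panel. The P60 minus P28 points are the same with and without that litter, but their standard errors differ, as for Marcksl1 (0.413 with it, 0.162 without). Stmn1 and Dpysl3 stay near 0.

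The share of the P14 to P60 fall that was already present at P28 was taken on the log2 scale, as the P14 to P28 difference over the P14 to P60 difference. It could be determined for 7 members, those whose P14 to P60 change was at least 2 of its standard errors. It was 55.4% (SE 13.5) for Gap43, 60.7% (SE 14.9) for Marcks, 63.7% (SE 11.9) for Nrep and 68.5% (SE 19.6) for Dpysl5. Stmn2 gave 69.9% (SE 17.4) on its representative probe set and 59.6% (SE 11.9) on 95670_at. These 5 genes lay within a standard error or so of each other, so their order is not resolved.

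Marcksl1 stood lowest, with 17.6% (SE 29) of its fall present at P28, and 44.3% (SE 7.49) without P14 litter 1. Basp1 stood highest, at 120% (SE 47.6), which means that its P28 mean was below its P60 mean, with an error that spans much of the scale. Without P14 litter 1 its fall was under 2 standard errors, so its share was no longer determined. For Crmp1 the share was undetermined with all litters and 72.2% (SE 15.5) without P14 litter 1. For Stmn1 and Dpysl3 there was no fall to divide. Leaving out each litter in turn, the share ran from 52% to 61.3% for Gap43, 55% to 67.1% for Marcks, 57.5% to 67.1% for Nrep, 63.6% to 75.1% for Stmn2, 58.9% to 77.2% for Dpysl5 and -10.4% to 44.3% for Marcksl1.

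The members' shares can be set beside those of other genes. The median over the 7 members was 63.7%. Over the 1970 tested probe sets whose P14 to P60 change was -0.62 or lower, as low as that of Basp1, the median share was 57.5%, with quartiles of 33.3% and 78.7%. Over the 60 probe sets called lower it was 69.5%. A direct test of whether the P28 level lay off the midpoint of the P14 and P60 levels called 0 of 10 members, with limma adjusted p of 0.998 for each of them and a lowest value of 0.0722 over all probe sets (783 at an unadjusted p under 0.05). P14 litters enter both the numerator and the denominator of the share. The first interval is shorter than the second, and the share is not a rate.

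**Figure D3:**
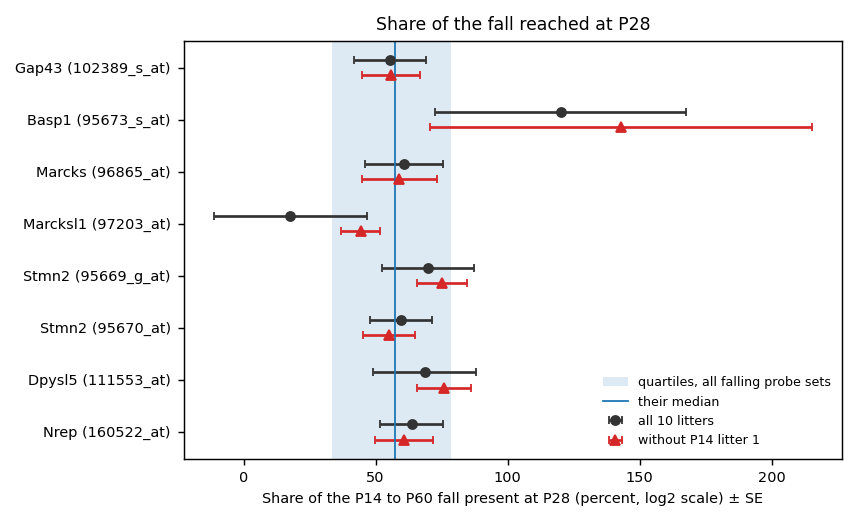
Share of the P14 to P60 fall present at P28 (x axis, percent on the log2 scale, with its standard error) for the 8 probe sets of 7 members where it was determined with all 10 litters. Black points are from all 10 litters and red points from the fit without P14 litter 1. The share of Basp1 was no longer determined in the latter fit, although its red point is drawn. The blue line and band are the median of 57.5% and the quartiles of 33.3% and 78.7% of all tested probe sets with a change of -0.62 or lower. They come from the fit with all 10 litters, so they are a background for the black points and not for the red ones. With all litters, Marcksl1 (17.6%) lies left of the band and Basp1 (120%) right of it, both with wide errors.

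P14 litter 1 moved the members' values in both directions. Relative to the mean of the other P14 litters its signal was 0.0568 on Basp1 107420_at, 0.164 for Crmp1, 0.243 for Marcksl1 and 0.256 for Dpysl5. It was 0.979 for Gap43, 1.11 for Marcks on chip A, 1.28 for Stmn1 on 97909_at and 1.35 for Nrep. It was 2.01 and 2.12 on Basp1 95673_s_at and 163510_at. Probe sets of 1 gene thus went opposite ways in that litter, and its control probe sets had the high 3' to 5' ratios given above, whose part in these values was not tested.

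**Figure D4:**
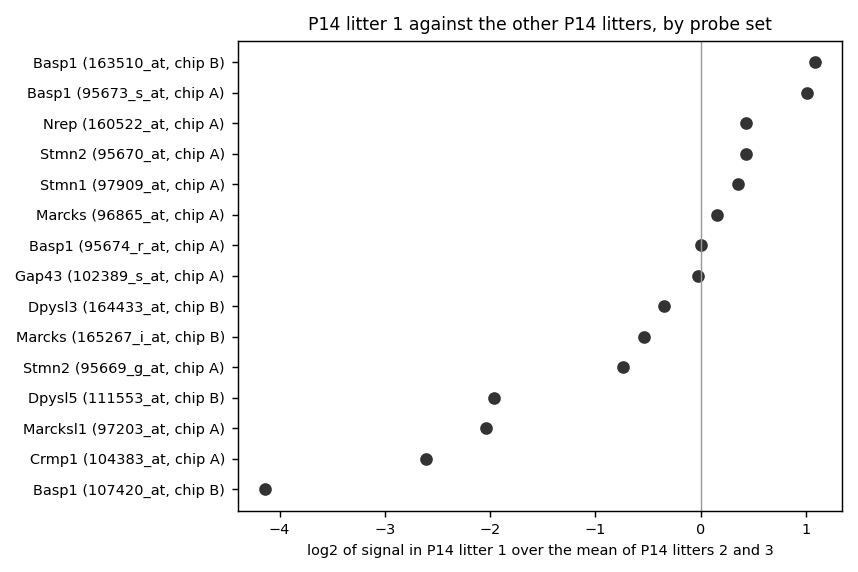
The log2 ratio (x axis) of the signal in P14 litter 1 to the mean of P14 litters 2 and 3 for each of the 15 tested member probe sets (y axis, with chip). Probe sets right of 0 were brighter in P14 litter 1; the 4 Basp1 probe sets span the plot from the lowest value (a ratio of 0.0568) to the highest (2.12).

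Over the 10 litters, the mean of the members' log2 signals, each centred on its own mean, was 0.20, 0.87 and 0.62 in the P14 litters, -0.06, 0.00 and 0.02 at P28, and -0.66, -0.37, -0.20 and -0.42 at P60. The 3 ages did not overlap in this mean. Dpysl5 and Stmn2 followed it most closely, with Pearson r of 0.978 and 0.977 over the 10 litters, then Gap43 at 0.936, Marcks at 0.901, Nrep at 0.881 and Marcksl1 at 0.851. Crmp1 (0.572) and Basp1 (0.379) followed it less, and Dpysl3 (-0.0609) and Stmn1 (-0.185) did not. Each gene is part of that mean, and all values come from the same arrays.

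Among genes outside the group, the 5 whose signals were most like the members' mean over the 10 litters were Klhl23 (r = 0.97), Rab3b (0.959), Rabif (0.956), Daam1 (0.954) and 1700086L19Rik (0.947). Rab3b, a small GTPase of synaptic vesicles, was at 401 ± 94.9 (n = 3) at P14, 210 ± 40.3 at P28 and 122 ± 15.2 (n = 4) at P60. Klhl23 was at 3310 ± 1164, 1546 ± 105 and 1132 ± 272. Daam1, a formin that nucleates actin filaments, was at 1639 ± 119, 1287 ± 19.9 and 1106 ± 158. These genes were chosen because they followed a mean that was lower at each later age, so their own decline is part of the choice and no test is given.

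The close relatives of the stathmins and collapsin response mediators did not pass any comparison with all litters. All 4 were measured, 3 had a negative P14 to P60 change, and their median was -0.12. Dpysl4 had the largest, at -0.59 (SE 0.227, limma adjusted p = 0.246), from 1065 ± 343 (n = 3) to 669 ± 47.1 (n = 4). Dpysl2, the best studied collapsin response mediator, was at 534 ± 28.7 at P14 and 650 ± 66.8 at P60, a change of 0.26 (SE 0.173, adjusted p = 0.472). Stmn4 and Stmn3 were at -0.18 and -0.05. Dpysl4 fell by 0.88 (SE 0.159, adjusted p = 0.02) once P14 litter 1 was left out, and the other 3 did not pass.

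Of the kinases, calmodulins and carriers that act on the members, 15 of 19 were measured and 0 passed in either direction in any comparison, with a median P14 to P60 change of -0.08. Prkcb, a protein kinase C of the forebrain, was at -0.45 (SE 0.29, limma adjusted p = 0.457), Mapk8, a kinase of stathmins, at -0.54 (SE 0.284, adjusted p = 0.372), Fez1, a kinesin adaptor, at -0.49 (SE 0.232, adjusted p = 0.33) and Cdk5, which phosphorylates collapsin response mediators, at 0.69 (SE 0.619, adjusted p = 0.608). The sign for Cdk5 rested on P14 litter 1, where the signal was 198 while P14 litters 2 and 3 gave 2164 and 2411: without it the change was -0.41 (SE 0.157, adjusted p = 0.182). The list's median was then -0.21, and 0 of 15 passed. Of the RNA-binding proteins that stabilise or move neuronal mRNAs such as that of Gap43, 3 of 5 were measured and 0 passed. Elavl4 had the lowest change, -0.55 (SE 0.216, adjusted p = 0.248), and Elavl2 and Elavl3 were at 0.13 and -0.06. None of the 3 passed without P14 litter 1 either.

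Of the semaphorin ligand, receptors and signalling partners upstream of the collapsin response mediators, 8 of 9 were measured, 0 passed, and 6 had a negative P14 to P60 change, with a median of -0.19. Fyn, a kinase that binds plexins, had the largest at -0.86 (SE 0.19, limma adjusted p = 0.0808), from 1595 ± 98.5 (n = 3) over 1245 ± 57.9 to 874 ± 174 (n = 4). Rac1, the GTPase of growth cone actin, was at -0.62 (SE 0.245, adjusted p = 0.252), Plxna3 at -0.48 and Nrp1 at 0.32. With P14 litter 1 left out, Fyn fell by 0.90 (SE 0.186, adjusted p = 0.0316), and the other 7 did not pass.

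Of other genes of young neurons, 15 of 16 were measured, 1 passed as lower at P60 and 0 as higher, and 11 had a negative change, with a median of -0.34. Ncam1, a neural cell adhesion molecule, fell by 1.02 on the log2 scale (SE 0.175, limma adjusted p = 0.0311), from 3310 ± 319 (n = 3) over 1673 ± 174 to 1608 ± 137 (n = 4). The 3 others with the largest changes did not pass: Cd24a was at -1.26 (SE 0.292, adjusted p = 0.0899), Sox4, a transcription factor of newborn neurons, at -1.01 (SE 0.372, adjusted p = 0.231) and Tuba1a, an alpha tubulin abundant in young neurons, at -0.93 (SE 0.226, adjusted p = 0.102). Cd24a passed beside Ncam1 without P14 litter 1, at -1.57 (SE 0.255, adjusted p = 0.014). The share present at P28 was 94.6% (SE 16.7) for Ncam1, 82.8% (SE 21.8) for Cd24a, 85.4% (SE 23.1) for Tuba1a and 40% (SE 34) for Sox4. Whether these differ from the members' shares was not tested.

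The tissue was checked against markers of its cell types. Each of 5 pan-neuronal genes was above the bacterial control level in every litter. Their summed signal ran from 24642 to 35636 at P14, 24348 to 30999 at P28 and 23168 to 28816 at P60. None of the 5 passed between P14 and P60, and their median change was -0.20. Without P14 litter 1 none passed either, and the change was negative for 3 of 5. Syt1 was then at -1.12 (SE 0.367, limma adjusted p = 0.124), Syp at -1.06 (SE 0.299, adjusted p = 0.0842) and Rbfox3 at -0.20. Eno2, at 0.39, and the remaining gene were positive. The 4 cortical excitatory markers used here had sums of 13755 to 16772 at P14 and 10391 to 16746 at P60. Of the interneuron markers 6 of 6 were measured, with sums of 13918 to 18816 and 16604 to 19376. With all litters no gene of these lists passed, and all of these ranges overlapped between P14 and P60, also without P14 litter 1. Without that litter Tbr1 and Gad1 were called higher at P60 (1.02 and 1.08, adjusted p = 0.0175 and 0.0187) and Gad2 lower (-2.07, adjusted p = 0.0321). Gad2 was below the bacterial control level on 4 arrays, so the size of its change rests in part on values near the floor. Camk2a was below that level on 3 arrays and Neurod6 on 2.

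Markers of some other cell types differed with age beside the members. Of the mature oligodendrocyte markers 4 of 6 were measured, and their sum was 3496 to 6574 at P14, 7443 to 12509 at P28 and 8769 to 12969 at P60, with every later litter above every P14 litter. Mag, a myelin glycoprotein, rose by 1.51 (SE 0.284, limma adjusted p = 0.0461), and the list's median was 1.32. Mbp and Mobp, which encode myelin proteins, passed as well without P14 litter 1, at 1.27 and 2.21 (adjusted p = 0.0325 and 0.00215). Of the meningeal markers 5 of 5 were measured and 1 passed: Igf2, a growth factor, fell by 1.79 (SE 0.2, adjusted p = 0.00937), from 6160 ± 237 (n = 3) to 1786 ± 352 (n = 4). The meningeal sum ran from 17128 to 21644 at P14 and from 9775 to 25057 at P60, where Ptgds alone was at 12634 ± 6939 (n = 4). Col1a1 was also called lower without P14 litter 1 (-0.75, adjusted p = 0.0488). The change was negative for 3 of 5 of these genes. Col1a2 and Ptgds went the other way, at 0.29 (SE 0.194) and 0.21 (SE 0.428) with all litters, and did not pass with or without P14 litter 1. Astrocyte sums were 11455 to 11832 in P14 litters 2 and 3, 21703 in P14 litter 1, where Gja1 alone gave 15105, and 8811 to 11504 at P60. Oligodendrocyte progenitor sums were 12139 to 12386 in P14 litters 2 and 3, above every P60 litter at 4852 to 7771, and 5866 in P14 litter 1. Olig1 gave 9559 and 8812 of these sums in P14 litters 2 and 3, and 3762 in P14 litter 1. The change was negative for 3 of 4 of these genes and positive for Sox10, at 0.32 (SE 0.25). With or without that litter, 0 of 6 and 0 of 4 genes of these lists were called. The part of these cell types in the members' changes was not tested.

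The remaining marker lists overlapped between P14 and P60 with all litters. Microglial sums were 2130 to 3337 at P14 and 2571 to 3407 at P60 (5 of 6 measured), and endothelial sums 689 to 1894 and 1139 to 1485 (4 of 5). The 689 was P14 litter 1, and the other P14 litters, from 1616 up, were above every P60 litter. Dividing cells, which express Stmn1 strongly, had 2 of 5 markers measured, with sums of 538 to 742 and 473 to 885. Hippocampal markers, a check for neighbouring tissue, had 3 of 4 measured, with sums of 1734 to 3656 and 1849 to 2221. The 3656 was P14 litter 1, and the other P14 litters were at 1734 and 2416. No marker of these 4 lists passed between P14 and P60 with all litters. Cldn5, a tight junction protein of vessels, was called lower without P14 litter 1 (-1.36, SE 0.284, limma adjusted p = 0.0322). The endothelial genes were split, with a negative change for 2 of 4. Flt1 went the other way, at 1.07 (SE 0.346) with all litters and 1.24 (SE 0.375) without P14 litter 1. Kdr was at 0.33 and 0.20, and was below the bacterial control level on 3 arrays. Neither passed.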

How the data were processed

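The authors deposited a linear signal intensity for each probe set on each array, from MAS5 per the submitters' processing notes; which version is not given here. Every array's 2% trimmed mean was near 500 in the tables the authors deposited, and no further scaling was applied. Symbols came from the platform annotation, updated through the gene ID. All 36899 probe sets were read, and the 198 array controls were left out of tests. The log2 of the signal plus the chip type's 20th percentile (38.6 on chip A, 57.8 on B, 44 on C) was fitted per chip type with limma 3.58.1 in R 4.3.3 (lmFit, eBayes with trend), age as the term and all 10 litters in each fit. Probe sets above the chip median (207, 252 and 183) on at least 3 arrays were tested, with Benjamini-Hochberg adjustment over the 20724 from the 3 chips at a threshold of 0.05. The scripts were tested on simulated data. The number of arrays limits the precision.

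Named genes were all 10 members and, from the related and cell type lists, at most 4 per list with the largest P60 with P14 change, and the 5 genes most like the members' mean. Members and lists were chosen with earlier results of these data known. Litter number is the second number in each title. Same-numbered litters did not deviate together (27 pairs of ages and chips, r from -0.076 to 0.158, 4 above 0.1), so the numbers were not taken to pair litters. Alternatives were other constants, filters, scaling, variance moderation, array weights, litters left out and litter number as a block; the lists without P14 litter 1 were added after seeing the data.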

Additional observations from a re-analysis of the deposited data

Results flagged for a closer look

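P60 litter 3 gave the highest Nrep signal of the 4 P60 litters, 2885, where the others were at 1542, 1653 and 1703. It stood further from its neighbour, relative to the group's range, than Dixon's 95% limit allows. It was the 1 sample found among 20 probe sets checked in the P60 group, and chance alone gives about 1 in 20. Without that litter the P14 to P60 change of Nrep was -2.06 (limma adjusted p = 0.0101), against -1.86 (adjusted p = 0.011) with it.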

How the results depend on the processing

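Of the 176 counts of calls recomputed, 127 stayed within 1.5 times their value, 27 rose and 22 fell. Of 660 member changes, 575 kept their sign and side of the threshold, 33 passed where they had not, 21 no longer passed and 31 changed sign; of 98 shares, 96 moved by less than their standard error. Of the members called lower between P14 and P60 (3), 0 were left with the 2 ages fitted alone, and 7 were called with the arrays that stood apart left out, with array weights, and (chosen after seeing the data) with quantile normalization without P14 litter 1. Leaving out 1 litter gave 0 to 7, and for P28 with P14 (0) it gave 0 to 1. The latter count was 4 without the arrays that stood apart, 7 with array weights and 1 with quantile normalization without P14 litter 1. The P28 with P14 calls over all probe sets, in either direction, rose as well, from 1 to 208, 1163 and 18 in that order. Members with every P14 litter above every P28 litter were 8 without P14 litter 1 (5 with it). With litter number as a replicate block, 0 members and 0 of all probe sets were called between P14 and P60; the numbers are not known to pair litters. Over all probe sets, the 82 called between P14 and P60 were 51 with no variance trend, 441 without the arrays that stood apart, 3621 with array weights, 390 with quantile normalization without P14 litter 1, and 0 with the 2 ages alone. Leaving out 1 litter gave from 0 (P14 litter 2) to 497 (P14 litter 1).

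Every sign change was of a change not called with all litters. Ranges are over fits that left out 1 litter. For P28 with P14, Marcksl1 ran from -0.92 to 0.11 (0.07 without P14 litter 2), Crmp1 from -0.90 to 0.47 (0.26 without P14 litter 3), Dpysl3 from -0.05 to 0.21, with -0.05 also without the arrays that stood apart and -0.11 with quantile normalization without P14 litter 1. Stmn1 was at 0.20 with quantile normalization, 0.22 with it and without P14 litter 1, 0.10 without P14 litter 1 or the arrays that stood apart, 0.09 with array weights and 0.01 without P28 litter 1. For P60 with P28, Stmn1 was at -0.02 with quantile normalization, with or without P14 litter 1, -0.01 without P28 litter 1, and from -0.04 to 0.06 over the litters left out. Crmp1 was at 0.01 and Dpysl3 at -0.23 without the arrays that stood apart. Dpysl3 was at -0.10 under the replicate block or without P60 litter 4, and -0.03 without P28 litter 2 or P60 litter 1. For P60 with P14, Stmn1 ran from -0.07 to 0.12 (-0.04 without P14 litter 2) and Crmp1 from -1.24 to 0.13. Dpysl3 was at -0.28 without the arrays that stood apart and -0.04 under the replicate block, and ran from -0.04 to 0.23. The share at P28 was 89.3% for Dpysl5 without the arrays that stood apart and 78.6% for Nrep on the linear scale. The cause was not tested.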
